A study of Mus musculus with 4 samples.

Results

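The genes that encode voltage-gated sodium and calcium channels were compared between hippocampal tissue of PND mice and control mice. Members were all protein-coding rows of the deposited count table whose symbol was Scn followed by a digit and the letter a or b, or began with Cacna, Cacnb or Cacng. This gave 40 of the 29300 genes listed. Of these, 20 encode pore-forming subunits and 20 encode auxiliary subunits, with the alpha2delta genes (Cacna2d1 to Cacna2d4) placed among the auxiliary ones. All mice were male C57BL/6 of 7 to 8 months and wild type, and all received 2.1% isoflurane and 30 mg/kg tramadol. The 2 control mice (sham) had no operation, and the 2 PND mice additionally had an open tibial fracture fixed with an intramedullary nail. Tissue was taken on day 1 after surgery, and the study uses this operation as a model of perioperative neurocognitive disorder (PND). The comparison asks whether transcripts of these channels differed between both groups of mice.

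Voltage-gated channels open when the membrane depolarizes. In a sodium (Nav) channel, a single large pore-forming subunit carries the current of the action potential, and small beta subunits set its gating and its place in the membrane. In a high-voltage-activated calcium (Cav) channel, the pore-forming subunit is accompanied by a cytosolic beta subunit and an alpha2delta subunit, which bring the channel to the membrane, and the current drives transmitter release, gene expression and firing patterns. Most of the gamma subunits named after the calcium channel act in brain as transmembrane AMPA receptor regulatory proteins (TARPs), which accompany glutamate receptors.

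The libraries held 15763432 to 18573386 counts, and 38 to 40 members had at least 1 count in each mouse. Levels are given as CPM, counts scaled to a common library size with TMM factors of 0.982 to 1.02. Counting noise alone did not account for the differences between replicates. Summed CPM of neuron markers was 6135 and 5939 in control mice and 6063 and 5916 in PND mice, but within this list Slc17a7 was lower (log2 fold change -0.38) and Map2 higher (0.53) at an edgeR adjusted p under 0.05. All 8 hippocampal markers were detected. Within the hippocampal list, Wfs1, Fibcd1 and Grik4 were lower and Neurod6 and Zbtb20 were higher in PND mice by the same criterion. Of the 6 interneuron markers, 2 were higher and 2 lower. Among 5 astrocyte markers Slc1a2 and Aqp4 were higher and Aldh1l1 was lower, with a list median of -0.02. The most abundant of them, Slc1a2, had 2276 and 2154 CPM, then 2780 and 2625 CPM. Summed levels did not overlap between groups for the lists of 5 astrocyte markers (2981 and 2769 CPM in control mice, 3384 and 3250 in PND mice), 5 endothelial markers (181 and 196, then 217 and 253), 3 mural markers (139.8 and 127, then 159.7 and 234), 5 thalamus markers (102 and 99.6, then 124 and 120.5) and 3 oligodendrocyte precursor markers (247 and 242, then 205 and 189). They overlapped for microglia (187 to 199 CPM), interneurons (773 to 928), oligodendrocytes (3276 to 5330), striatum (60.8 to 97.5), red blood cells (5.09 to 11.2) and skeletal muscle (7.84 to 15.0). By the same criterion, P2ry12 of the microglia list (log2 fold change 0.84), Flt1 of the endothelial and Rgs5 of the mural list were higher, and Cspg4 and Olig1 of the oligodendrocyte precursor list and Acta1 of the muscle list were lower. The 5 choroid plexus markers summed to 127 and 5402 CPM in control mice 1 and 2 and to 2029 and 3447 CPM in PND mice 1 and 2. No listed marker was at 0 in all mice. The part of these differences in the results below was not tested, and in a bulk tissue fewer cells of a type and less RNA per cell cannot be told apart.

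Of the 40 members, 35 passed the filter on low counts and were tested, 16 pore-forming and 19 auxiliary. At an edgeR adjusted p under 0.05, 12 members (34.3%) were lower in PND mice and 3 (8.57%) were higher. Over all 17144 genes tested, 12.8% were lower and 13.1% were higher. Members were mostly abundant, and among the 10364 genes with a mean of at least 10 CPM, 20.6% were lower and 18.1% higher, against 41.4% and 10.3% of the 29 members at that level. The fold limits for a differentially expressed gene (DEG) were at least 1.5 for a higher and at most 0.67 for a lower gene. They were also passed by 1 member in each direction, the higher one being Cacnb4, where 6.75% of all genes were higher DEGs and 2.25% were lower DEGs. Both PND mice lay below both control mice for 20 of the 35 members and above them for 9, compared with 32.2% and 33.2% of all genes tested.

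The median log2 fold change, PND over control mice, was -0.04 for the pore-forming members (8 positive, 8 negative, from -0.52 to 0.56, with a median of 0.0038 when libraries were scaled by their totals alone) and -0.24 for the auxiliary members (5 positive, 14 negative), beside 0.01 for all genes tested. Single mice moved these medians: the pore-forming one was -0.15 without control mouse 2 and -0.12 without PND mouse 1, and the auxiliary one was -0.10 without control mouse 1. Among pore-forming members 5 fell and 1 rose, and among auxiliary members 7 fell and 2 rose. Together, the members took 0.521% and 0.501% of the reads of control mice and 0.470% and 0.461% of those of PND mice. The share of the pore-forming genes was 0.262% and 0.257% in control mice and 0.246% in each PND mouse, and that of the auxiliary genes was 0.259% and 0.244%, then 0.224% and 0.215%. Protein-coding transcripts of the mitochondrial genome took 2.82% and 2.52% of the counts of control mice and 4.44% and 4.48% of those of PND mice. Their part in the shares of the members was not tested. Without control mouse 1 or without PND mouse 2, 7 members were lower in place of 12, where the lower calls over all genes also dropped, from 2199 of 17144 to 1717 and 1347 of 17855. Without control mouse 2 only Cacnb4 was higher, as were 1201 of 17871 genes. When genes with low counts were not filtered out, 7 members were lower and 1 was higher, beside 1350 lower and 1315 higher of 29300 genes. The calls for Cacnb3, Cacnb1, Cacna1h, Cacna1i and Cacnb4 held under each of these settings, while 14 of the 15 calls were lost when trends with exon length and GC content were removed together, as described after the single classes.

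**Figure D1:**
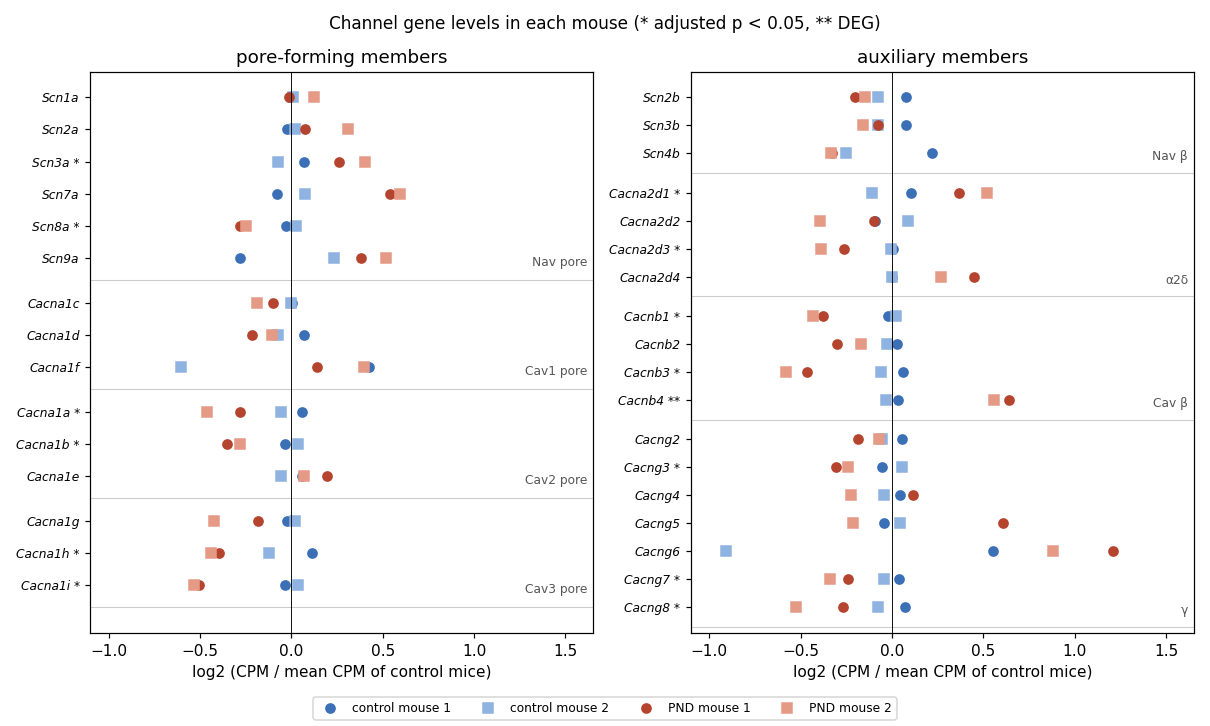
Level of 33 of the 35 tested members in each mouse, as the log2 of its CPM over the mean CPM of the control mice, with pore-forming members on the left and auxiliary members on the right. Points are single mice (blue control, red PND), asterisks mark an edgeR adjusted p under 0.05 and double asterisks mark DEGs. Both PND mice sit below both control mice for 19 of the members shown and above them for 9.

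Among the Nav pore genes, the transcript of Scn8a, which encodes the channel of the axon initial segment and nodes of Ranvier in mature neurons, fell, while that of Scn3a, most abundant in the developing brain, rose. Per kilobase of exon Scn8a had the highest level of the class in control mice (32.3 CPM per kb), above Scn2a (20.1), Scn1a (11.5) and Scn3a (4.42), and this order was the same in PND mice (26.9, 23.04, 11.97 and 5.57). The level of Scn8a (chr15:100869858-101045938) was 500.1 and 519.6 CPM in control mice and 419.6 and 429 CPM in PND mice. The groups did not overlap, and the log2 fold change was -0.26 (standard error, SE, 0.056, edgeR adjusted p = 0.018). Without control mouse 2 the call was lost (adjusted p = 0.081). Scn3a (chr2:65457118-65567627) measured 57.8 and 52.4 CPM in control mice and 65.97 and 72.9 CPM in PND mice. Both PND mice were above both control mice, with a log2 difference of 0.33 (SE 0.088, adjusted p = 0.036), and the adjusted p was 0.15 without control mouse 2 and 0.12 without PND mouse 2.

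Scn2a, the pore of excitatory axons early in life, and Scn1a, the main pore of fast-spiking inhibitory neurons, did not pass the test. Scn2a had 252 and 259.5 CPM in control mice and 269.6 and 317 CPM in PND mice, a log2 fold change of 0.20 (adjusted p = 0.14). Its groups did not overlap, but the PND mice lay further from each other than PND mouse 1 did from either control mouse, and without PND mouse 1 the adjusted p was 0.029, while without PND mouse 2 the log2 fold change was 0.081 (adjusted p = 0.54). For Scn1a, values of 128 and 129 CPM in control mice enclosed neither PND mouse (127 and 139.9 CPM), one of which lay below and the other above them, with a log2 fold change of 0.06 (SE 0.071, adjusted p = 0.6). Scn7a and Scn9a were at 3.13 to 6.10 CPM in every mouse. Scn7a, which encodes a sodium-sensing relative of the channels, had 3.83 and 4.27 CPM in control mice and 5.89 and 6.10 CPM in PND mice. Its log2 fold change was 0.56 (SE 0.20, adjusted p = 0.083). The genes of the skeletal muscle channel Scn4a and of the sensory neuron channels Scn10a and Scn11a had 0 to 4 counts in any mouse and were not tested, as were those of the muscle calcium channel subunits Cacna1s and Cacng1, also with 0 to 4 counts.

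Of the Cav2 pore genes, which encode the calcium channels of nerve terminals, Cacna1a (P/Q-type) and Cacna1b (N-type) fell and Cacna1e (R-type) did not. Their control levels were close, at 19.6, 19.6 and 19.3 CPM per kb, and in PND mice they were 15.2, 15.7 and 21.1. Cacna1a (chr8:84388440-84640246) measured 233 and 215 CPM in control mice and 184 and 162 CPM in PND mice. With the groups apart, the log2 fold change was -0.37 (SE 0.081, adjusted p = 0.02), and the adjusted p was 0.059 without control mouse 1 and 0.057 without PND mouse 2. Cacna1b (chr2:24603887-24763152) had 189 and 199 CPM in control mice against 152 and 159.7 CPM in PND mice. Its log2 fold change was -0.32 (SE 0.063, adjusted p = 0.015, and 0.065 without control mouse 2). Cacna1e (chr1:154390731-154884501) had 505 and 467 CPM in control mice and 555 and 509.6 CPM in PND mice. Both PND mice were above both control mice, by only 4.7 CPM at the nearest pair, and the log2 fold change was 0.13 (SE 0.071, adjusted p = 0.22).

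The PND mice lay below the control mice for all 3 Cav3 pore genes, which encode the low-voltage-activated T-type channels that favour burst firing, and 2 of these genes passed the test. Cacna1i (chr15:80287238-80398279) had the lowest log2 fold change of any pore-forming member. Its level was 127 and 133 CPM in control mice and 91.6 and 89.9 CPM in PND mice, a gap larger than the spread within either group (log2 fold change -0.52, SE 0.064, adjusted p = 0.0049). Cacna1h (chr17:25374285-25433783), the most abundant of the 3 per kilobase at 24.3 CPM per kb in control mice, had 256 and 218 CPM in control mice and 180.0 and 174 CPM in PND mice. The control mice differed from each other by more than the PND mice did, and the log2 fold change was -0.42 (SE 0.087, adjusted p = 0.017). For Cacna1g the level was 132 and 137 CPM against 119 and 100.3 CPM, which gave a log2 fold change of -0.30 and an adjusted p of 0.054. That value crossed the threshold without PND mouse 1 (adjusted p = 0.01) and with DESeq2 (adjusted p = 0.025), while without PND mouse 2 the log2 fold change was -0.18 (adjusted p = 0.21).

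The L-type (Cav1) pore genes, whose channels couple depolarization to transcription and shape pacemaking, gave no call. Cacna1c, the most abundant at 8.68 CPM per kb in control mice and 7.86 in PND mice, had 184 CPM in each control mouse and 172 and 161 CPM in PND mice (log2 fold change -0.14, SE 0.062, adjusted p = 0.14). Cacna1d had 95.0 and 86.2 CPM in control mice and 78.1 and 84.1 CPM in PND mice (log2 fold change -0.16, adjusted p = 0.19). Both genes were lower in both PND mice, by less than the test could separate from replicate variation. Cacna1f, known from the retina, had only 13 to 25 counts, and its groups overlapped.

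Among the Nav beta genes, whose proteins modulate sodium channel gating and cell adhesion, Scn2b, Scn3b and Scn4b had negative log2 fold changes and did not pass the test. Per kilobase, Scn2b (61.6 CPM per kb in control mice, 54.6 in PND mice) and Scn3b (53.6, then 49.4) were far above Scn4b (6.50, then 5.16). Scn2b had 302 and 271 CPM in control mice and 249 and 259 CPM in PND mice, and Scn3b had 308 and 277 CPM against 278 and 262 CPM (log2 fold changes -0.17 and -0.12, adjusted p = 0.12 and 0.29). Scn4b, which contributes to resurgent sodium current, had 37.6 and 27.1 CPM in control mice and 25.8 and 25.7 CPM in PND mice, and its log2 fold change of -0.33 (adjusted p = 0.18) became -0.55 (adjusted p = 0.027) without control mouse 2 and -0.083 (adjusted p = 0.7) without control mouse 1.

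Within the alpha2delta genes, 1 member rose and another fell. Cacna2d1 (chr5:15934691-16374511), which encodes the gabapentin-binding subunit typical of excitatory neurons, had 171 and 148 CPM in control mice and 206 and 229 CPM in PND mice. All PND values were above all control values, with a log2 fold change of 0.45 (SE 0.092, adjusted p = 0.016, and 0.053 without control mouse 2). Cacna2d3 (chr14:28904943-29721864) had 106 and 105 CPM in control mice and 87.9 and 80.5 CPM in PND mice. Here the groups were apart in the other direction, with a log2 fold change of -0.32 (SE 0.071, adjusted p = 0.021). This call was lost without control mouse 1 (0.057), control mouse 2 (0.062) or PND mouse 2 (0.09). Cacna2d1 and Cacna2d3 were near each other in control mice, at 12.8 and 12.1 CPM per kb, and apart in PND mice, at 17.5 and 9.66. Cacna2d2 (44.1 and 50.2 CPM, then 44.0 and 35.8) and the scarce Cacna2d4 (1.97 CPM in each control mouse, 2.70 and 2.37 in PND mice) were not called (adjusted p = 0.2 and 0.37).

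Among the beta subunit genes of the calcium channel, 1 rose and 2 fell. The proteins bind the same site of the pore-forming subunit and compete for it, so their relative amounts are of interest. Cacnb4 (chr2:52428320-52676831) had 80.6 and 76.9 CPM in control mice and 122 and 116 CPM in PND mice. The replicates of each group were within 6.4 CPM of each other, and the fold change was 1.51 (log2 0.60, SE 0.068, adjusted p = 0.0045), the only higher DEG among the members. With control mouse 2 or PND mouse 1 left out, the log2 fold changes of 0.56 and 0.55 were under the fold limit. Cacnb3 (chr15:98632220-98644530), with the highest level of the class at 68.9 CPM per kb in control mice and 48.0 in PND mice, had 288 and 264 CPM in control mice and 200.2 and 185 CPM in PND mice. It fell by 0.52 on the log2 scale (SE 0.073, adjusted p = 0.006) and was a lower DEG only without control mouse 2 (-0.59) or without PND mouse 1 (-0.60). Cacnb1 (chr11:98001508-98023034) had 199 and 204 CPM in control mice against 155 and 149 CPM in PND mice. With both groups tight, its log2 fold change was -0.41 (SE 0.060, adjusted p = 0.0065). Cacnb2 had 82.6 and 79.4 CPM, then 65.6 and 71.9 CPM, lower in both PND mice without passing the test (log2 fold change -0.24, adjusted p = 0.065).

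These 4 genes encode nearly the same protein in their conserved core with different bases. The coding stretches below, each of 40 codons read 5′ to 3′ from GENCODE M21 transcripts on GRCm38, are aligned on this core. The stretch was picked as the 40 codons of Cacnb3 that share the most residues with the other genes, so a close likeness followed from the choice. Codons for the same residue as in Cacnb3 numbered 38 of 40 in Cacnb1 and 40 of 40 in Cacnb2 and Cacnb4. Capitals mark G or C at the third base of a codon, which occurred in 31 codons of Cacnb1, 18 of Cacnb2, 30 of Cacnb3 and 23 of Cacnb4. They are shown because these genes differ in base composition, with which the fold changes are compared further on.
Cacnb1 (chr11:98009866-98010364, minus strand): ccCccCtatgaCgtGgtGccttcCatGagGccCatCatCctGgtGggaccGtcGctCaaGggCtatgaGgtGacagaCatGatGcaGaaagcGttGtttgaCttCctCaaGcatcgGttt
Cacnb2 (chr2:14971574-14972112, plus strand): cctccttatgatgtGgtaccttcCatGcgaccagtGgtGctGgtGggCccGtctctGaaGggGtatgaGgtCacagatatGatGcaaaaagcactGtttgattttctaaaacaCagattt
Cacnb3 (chr15:98641189-98641450, plus strand): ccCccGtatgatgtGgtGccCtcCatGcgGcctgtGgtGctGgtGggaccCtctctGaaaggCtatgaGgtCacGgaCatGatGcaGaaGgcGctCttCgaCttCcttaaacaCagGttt
Cacnb4 (chr2:52464618-52465666, minus strand): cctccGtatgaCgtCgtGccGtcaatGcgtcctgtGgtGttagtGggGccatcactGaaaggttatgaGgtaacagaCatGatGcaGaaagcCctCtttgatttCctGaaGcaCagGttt
Each stretch spans 2 exons within the given coordinates. Over the whole coding sequence, G or C stood at the third base in 71.3% of codons in Cacnb1 and in Cacnb3, 55.5% in Cacnb4 and 50.7% in Cacnb2, so that Cacnb2 and not Cacnb4 was the lowest by this measure. The exons of all annotated transcripts held 59.4% GC in Cacnb1 and in Cacnb3, which fell, 45.2% in Cacnb2, which was not called, and 39.7% in Cacnb4, which rose.

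The gamma genes gave 3 lower calls and no higher one among 7 tested. Those that fell encode TARPs, which accompany AMPA receptors. Cacng8 (chr7:3390683-3415648), prominent in hippocampal principal cells, had 167 and 151 CPM in control mice and 132 and 110.3 CPM in PND mice (log2 fold change -0.39, SE 0.10, adjusted p = 0.033). Cacng7 (chr7:3332955-3368221), the most abundant at 71.1 CPM per kb in control mice and 58.2 in PND mice, had 178 and 169 CPM in control mice and 147 and 137 CPM in PND mice (log2 fold change -0.29, SE 0.068, adjusted p = 0.025). Cacng3 (chr7:122670492-122769393) had 68.3 and 73.6 CPM against 57.4 and 60.1 CPM (log2 fold change -0.27, SE 0.076, adjusted p = 0.043). The PND mice were below the control mice for each of the 3. Cacng7 and Cacng8 were no longer called without control mouse 1 (adjusted p = 0.089 and 0.092) or PND mouse 2 (0.098 and 0.086). Cacng3 lost its call whichever single mouse was left out (adjusted p from 0.054 without control mouse 1 to 0.19 without control mouse 2) and under DESeq2 (0.058).

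Cacng2, the TARP called stargazin, and Cacng4 did not pass the test. Cacng2 had 63.0 and 58.3 CPM, then 53.3 and 57.8 CPM, and Cacng4 had 25.4 and 23.8 CPM, then 26.7 and 21.03 CPM (adjusted p = 0.3 and 0.84). Both PND mice were below both control mice for Cacng2, and for Cacng4 they lay on either side of them. Cacng5 had 13.1 and 13.9 CPM in control mice but 20.6 CPM in PND mouse 1 and 11.6 CPM in PND mouse 2. Its sign therefore depended on which PND mouse was used, with a log2 fold change of 0.61 without PND mouse 2 (adjusted p = 0.035) and -0.23 without PND mouse 1. Cacng6, a relative of the muscle subunit, had 13 and 5 counts in control mice and 19 and 16 counts in PND mice. Its log2 fold change of 1.06 had a SE of 0.52 and did not pass the test (adjusted p = 0.18), and it was 1.93 without control mouse 1 and 0.49 without control mouse 2.

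The make-up of the classes, as the share of each member in the summed CPM per kb of its class, is described here without a test. Cacnb4 took 6.87% and 6.82% of the Cav beta transcripts in control mice and 13.3% in each PND mouse, while Cacnb3 went from 54.9% and 52.5% to 48.6% and 47.3%. Among alpha2delta transcripts, Cacna2d1 made up 43.5% and 39.1% in control mice and 51.1% and 56.8% in PND mice, and Cacna2d3 38.3% and 39.5%, then 31.0% and 28.5%. In the Nav pore class, Scn8a was at 46.1% and 46.7% in control mice and 40.1% and 37.7% in PND mice, and Scn2a at 28.8% and 28.9%, then 31.9% and 34.5%. These shares did not overlap between groups. In the Cav pore class Cacna1e went from 15.6% and 15.1% to 20.5% and 19.8%, which in PND mice placed it above Cacna1h (17.2% and 17.5%). The share of Cacng7 among gamma transcripts was 38.2% in each control mouse and 37.6% and 38.8% in PND mice, while that of Cacng8 was 37.2% and 35.6%, then 35.1% and 32.5%. Shares within a class sum to a constant, so that a rise of 1 member lowers the others. Lengths are those of all annotated exons and not of the transcripts used in this tissue. The shares were not corrected for trends with exon length and GC content. With these removed, the log2 fold change went from 0.60 to -0.06 for Cacnb4, from 0.45 to 0.01 for Cacna2d1 and from 0.20 to -0.18 for Scn2a. It went from -0.32 to -0.53 for Cacna2d3 and from 0.13 to 0.12 for Cacna1e.

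**Figure D2:**
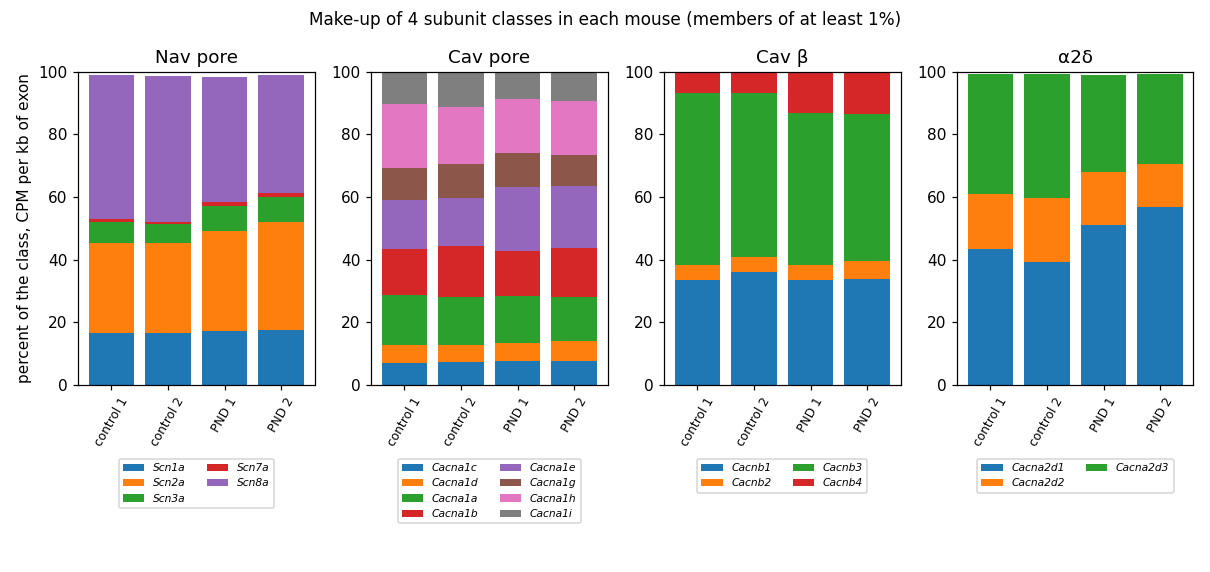
Make-up of 4 subunit classes in each mouse, with each bar a single mouse and each colour the percent that a gene of at least 1% takes of the summed CPM per kb of exon of the class. The red Cacnb4 segment of the Cav beta panel is 6.87% and 6.82% in the control mice and 13.3% in each PND mouse. Shares are shown without the length and GC correction.

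Several members lie side by side in the genome (mm10). On chromosome 2, Scn3a, Scn2a, Scn1a, Scn9a and Scn7a lie between positions 65457118 and 66784914. All 5 had a positive log2 fold change (0.06 to 0.56, median 0.33), but only Scn3a passed the test, and their median GC content was 43.2%. Between 1.88% and 3.85% of the 75-nt windows of Scn1a, Scn2a, Scn3a and Scn9a also occur in another of these genes. On chromosome 7, Cacng7, Cacng8 and Cacng6 lie between 3332955 and 3435667, and the first 2 fell while Cacng6 was not called. Scn2b and Scn4b are neighbours on chromosome 9 (45117782 to 45154152), and neither was called. Strand use in counting is not given in the sources used here, so reads of a member and of a gene on its opposite strand cannot be told apart. The exons of Cacnb4 overlap A430018G15Rik by 1433 nt, to which 0 and 3 counts were assigned in control mice and 0 and 1 in PND mice. Those of Cacna1a overlap Gm16183 by 435 nt (84 and 80 counts, then 75 and 53), and those of Cacna1h and Cacnb1 overlap Tpsg1 (3 to 5 counts) and Gm11629 (0 to 4 counts). Cacng8 overlaps Gm23450 on its own strand.

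The direction of change among members went with the GC content of their transcripts. Across the 35 members, Spearman's rho of the log2 fold change with the GC content of annotated exons was -0.72, with -0.74 over the 16 pore-forming and -0.67 over the 19 auxiliary members. Across 17120 genes it was -0.64. These are descriptions across genes, which share the same 4 libraries and are not independent replicates. The 3 members that rose had 39.7% to 42.4% GC, and the 12 that fell had 46.5% to 64.1%. In the eighth of all genes with the lowest GC content (up to 42.8%), the median log2 fold change was 0.60 and that of its 4 members was 0.51. In the highest eighth (from 57.2%), the median of all genes was -0.34 and that of its 10 members was -0.40. Of the genes in the highest eighth with at least 10 CPM, 56.0% were lower at the adjusted p threshold, as were 8 of 9 members (88.9%). In the lowest eighth with at least 10 CPM, 75.8% of genes were higher, as were 3 of 3 members. Some members departed from the genes of like GC content. Cacna2d3 (46.5% GC) was at -0.32 where the median of its eighth was 0.18, and Cacnb2 (45.2%) was at -0.24 where it was 0.31. Scn1a (43.2%) was at 0.06 in that same eighth.

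**Figure D3:**
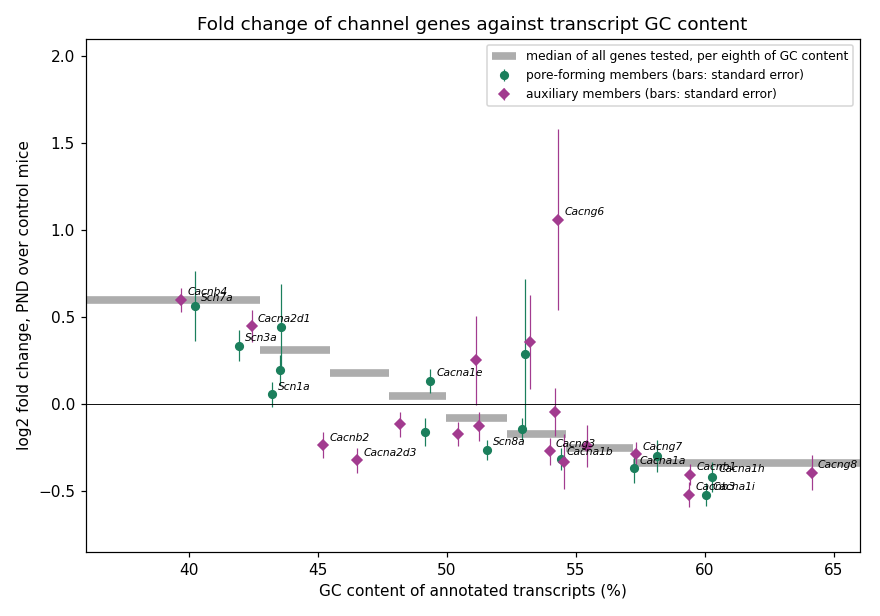
Log2 fold change (PND over control mice) of 33 of the 35 tested members against the GC content of their annotated exons in percent, with bars for the standard error. Grey bars give the median of all genes in each eighth of GC content, from 0.60 in the lowest to -0.34 in the highest, and Cacnb2 and Cacna2d3 lie below the bars at their GC content.

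When per-library smooth trends with exon length and GC content were removed, most calls were lost and others appeared. No member was higher and 2 were lower, Cacnb2 (log2 fold change -0.51, SE 0.075, adjusted p = 0.038) and Cacna2d3 (-0.53, SE 0.084, adjusted p = 0.041). Among all genes, the same correction left 97 higher and 213 lower. The corrected medians were -0.10 for the pore-forming and -0.09 for the auxiliary members, beside -0.04 for all genes. Of the 35 members 26 were negative, as were 9446 of 17120 genes. For Cacnb4, the log2 fold change went from 0.60 to -0.06 (adjusted p = 0.71), and for Cacna2d1 from 0.45 to 0.01 (0.98). Scn3a went from 0.33 to -0.14 (0.35). The other fallen members named above stayed negative without a call and moved towards 0, to between -0.22 (Cacnb3, adjusted p = 0.21, from -0.52) and -0.04 (Cacng7, 0.85, from -0.29). Scn1a, near 0 without the correction, was at -0.34 with it (SE 0.069, adjusted p = 0.059). All these values are with condition as the only other term. With the replicate number added as a block, 0 members were higher and 7 lower, beside 789 higher and 1698 lower of 17120 genes. Cacnb3, Scn8a and Scn1a were then called lower (adjusted p = 0.024, 0.031 and 0.0062). The correction removes whatever follows length and GC content, and the origin of the trend was not tested.

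**Figure D4:**
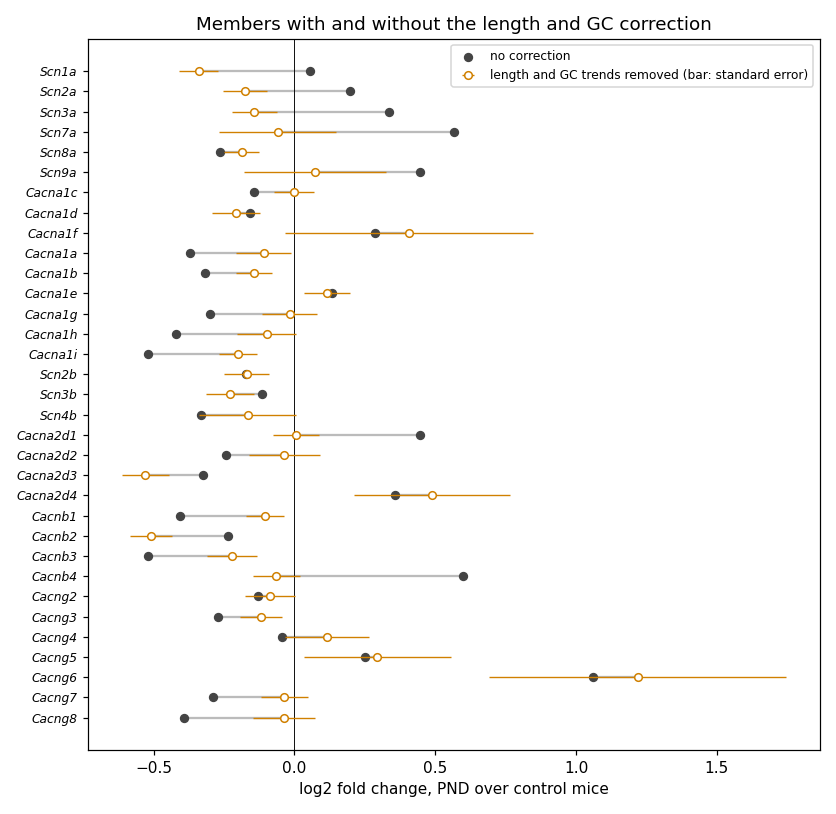
Log2 fold change (PND over control mice) of 33 of the 35 tested members without correction (filled points) and with the length and GC trends of each library removed (open points, bars for the standard error). Cacnb4 moves from 0.60 to -0.06 and Cacna2d1 from 0.45 to 0.01, while Cacna2d3 moves from -0.32 to -0.53 and Cacnb2 from -0.24 to -0.51.

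A list of 28 related genes, all of which were tested, held partners of these channels, the genes of the sodium leak channel complex and relatives of channel subunits, and is called the partner list. Of these, 6 fell (21.4%) and 2 rose (7.14%), with 12.8% and 13.1% of all genes as background and a median log2 fold change of 0.07. Most of the list and all of its called genes had a mean of at least 10 CPM. Among all genes at that level, 20.6% were lower and 18.1% higher, so the lower share of the list was near that background. The 6 lower calls became 3 without control mouse 1, 2 without PND mouse 2 and 3 with libraries scaled by their totals alone, and the higher calls became 1 when control mouse 1, control mouse 2 or PND mouse 2 was left out. Among the fibroblast growth factor homologous factors, which bind the tail of sodium channels and modulate their inactivation, Fgf12 had 59.8 and 57.3 CPM in control mice and 95.9 and 92.5 CPM in PND mice. It was a higher DEG (log2 fold change 0.68, SE 0.069, adjusted p = 0.0045, GC content 43.6%). Fgf14 had 16.7 and 16.8 CPM against 21.1 and 25.2 CPM and rose by 0.47 (adjusted p = 0.038). Fgf11 and Fgf13 were not called (adjusted p = 0.16 and 0.63). Of 5 scaffold genes of the axon initial segment, where Nav channels are clustered, Nfasc (456 and 458 CPM, then 361 and 293), Sptbn4 (419.5 and 371, then 324 and 289) and Trim46 (158 and 148, then 117 and 109) fell. Their log2 fold changes were -0.48, -0.37 and -0.43 (adjusted p = 0.017, 0.025 and 0.0083), at 54.9% to 63.3% GC. The master scaffold Ank3 (462 and 450.0 CPM, then 501 and 460.3) and Nrcam were not called (adjusted p = 0.43 and 0.44). Rem2, a small GTPase that inhibits calcium channels, the adaptor Stac2 and the alpha2delta-like Cachd1 fell with adjusted p values of 0.049, 0.047 and 0.048. With the length and GC trends removed, none of the 28 was called in either direction, with condition as the only other term. Without the filter on low counts 1 was called in each.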

How the data were processed

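Hippocampal poly(A) RNA of 2 control and 2 PND mice was sequenced by the study as paired-end reads and mapped to mm10. The authors deposited, for 29300 genes, the count of reads in each mouse without normalization. The submitters' processing notes name HISAT2 2.1.0, TopHat2, Bowtie2 2.2.3 and HTSeq 0.6.0 without roles, and strand use in counting is not given in the sources used here. The authors also deposited the results of their own comparison (a mean normalized signal over the mice, a fold change as a ratio, its log2, a p-value and an adjusted p-value for each gene), and none of these columns was used. Library totals ran from 15763432 to 18573386 counts.

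Counts were filtered with filterByExpr (minimum count 10, leaving 17144 genes), scaled by TMM and tested with edgeR 4.0.16 (glmQLFit, glmQLFTest, condition as the only term) in R 4.3.3, with Benjamini-Hochberg adjustment over all genes tested. All adjusted p values are from this test unless DESeq2 1.42.0 is named. Each standard error is the size of the log2 fold change divided by the root of F. With 2 mice in each group, an exact permutation test of a single gene cannot go below p = 0.333, and the edgeR p-values rest on a spread estimated jointly over genes.

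Gene identifiers were matched to GENCODE M21 (29238 of 29300) for exon length, GC content, overlaps and coding sequences. Coordinates of genes are those of the deposited table. GC and length trends were fitted for each library with mgcv 1.9.3 (basis size 8) and entered as offsets. Other alternatives were library totals without TMM, DESeq2, no filter on low counts, leaving out each mouse in turn, and the replicate number as a block. The procedure was tested on simulated counts with 200 genes changed by a fold of 2. Among 16799 genes, edgeR recovered 184 of these and also called 30 unchanged genes. DESeq2 recovered 185 and called 25 unchanged genes. With the length and GC correction, edgeR recovered 185 and called 35 unchanged genes among 16775. Calls in the simulation therefore included unchanged genes under each of these settings.

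Of the members, 2 are counted in all totals but not reported singly here. Values in every mouse are given for the others with an adjusted p under 0.05 and for the most abundant of each class per kilobase of exon. Other members named with their values in every mouse were chosen after these were seen. Partner genes and marker lists were written out by hand. The members and all lists were chosen with earlier results of these data known.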

Additional observations from a re-analysis of the deposited data

How the results depend on the processing

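With library totals only, the pore-forming median was 0.003816 and 3 partner genes were lower. DESeq2 called 1 partner gene higher. Without the filter on low counts, 1 member was higher and 7 were lower, and partner genes numbered 1 in each direction. With the replicate number as a block, 3 members were higher, 13 lower (with Cacna1g added, adjusted p = 0.033) and 4 partner genes higher, with 2655 higher and 2626 lower of all 17144 genes. The labels do not say that a number pairs mice, and deviations of same-numbered mice correlated at 0.224 over all genes and at -0.115 over the 35 members tested. The length and GC correction gave no member DEG (0 higher, 0 lower), 0 higher and 2 lower members at the adjusted p threshold, medians of -0.1041 and -0.08586 for pore-forming and auxiliary members, and 0 partner genes called. Combined with the replicate block it gave 0 higher and 7 lower members (over all genes 789 higher and 1698 lower of 17120), no DEG (0 in either direction), medians of -0.1007 and -0.08423, and 2 higher and 4 lower partner genes. The 7 included Cacna2d3, Cacnb2, Cacnb3, Scn1a, Scn3b and Scn8a.

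Leaving out each mouse in turn gave 7 to 13 lower and 1 to 4 higher members, 0 to 2 DEGs in each direction, a pore-forming median from -0.1506 to -0.0259, an auxiliary median from -0.2394 to -0.1009, and 1 to 3 higher and 2 to 6 lower partner genes.

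The number of calls over all genes also varied with the mouse left out. The ranges of calls above can therefore not be read as particular to the members or partner genes. Signs reversed as follows, and the cause was not tested. Under the length and GC correction, alone and with the block, the log2 fold change was -0.3394 and -0.3395 for Scn1a, -0.1757 and -0.1775 for Scn2a, -0.1418 and -0.1414 for Scn3a, -0.05966 and -0.05969 for Scn7a, -0.06381 and -0.0665 for Cacnb4, and 0.1163 and 0.1081 for Cacng4. Cacng4 was also positive with library totals only (0.001929) and without PND mouse 2 (0.1222), where Scn1a was at -0.0103. With each mouse left out in turn, Cacna1f ran from -0.1516 (without control mouse 2) to 0.8683, Cacng5 from -0.2304 (without PND mouse 1) to 0.6141, Scn1a from -0.0103 to 0.1091 and Cacng4 from -0.2394 to 0.1222.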

Other observations

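Genes of the presynaptic active zone and of the sodium leak channel complex showed no call in either direction. The active zone genes Rims1 (log2 fold change -0.02), Rims2 (0.04), Rimbp2 (-0.16), Erc1 (0.13) and Erc2 (0.21), whose proteins tether calcium channels near synaptic vesicles, had edgeR adjusted p values of 0.89, 0.68, 0.18, 0.31 and 0.074. Erc2 had 170.1 and 154 CPM in control mice and 189 and 184 CPM in PND mice, with the groups apart. Nalcn, the pore of the sodium leak channel that sets resting excitability, had 103 and 99.8 CPM in control mice and 109 and 115 CPM in PND mice (log2 fold change 0.14, adjusted p = 0.16). Its partners Unc79 (-0.16), Unc80 (0.10) and Fam155a (0.09) had adjusted p values of 0.1, 0.27 and 0.42.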
